A study of Arabidopsis thaliana with 12 samples.

Results

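The comparison described here set flu1-5 ex1 seedlings against flu1-1 ex1 seedlings of Arabidopsis thaliana at the end of 1 h of light that followed 4 h of darkness. It used the 6 light libraries of 12 in all, 3 per line, and the genes were joined between the tables deposited for each line. Of 27655 genes in each table, 26684 were listed with the same transcript in both and were kept, and 971 were left out. All seedlings were 6 days old, were grown in continuous light and differed in the flu allele, and each replicate was a pool of about 100 seedlings per the file headers. The flu1-5 ex1 and flu1-1 ex1 libraries of seedlings taken straight after the 4 h of darkness served as a second pair. Every group carried the ex1 mutation, so no wild type and no line with an unmutated EX1 or FLU was among them, and none stayed dark for the further 1 h. The genotype field of the labels reads flu1-1 for all 12 samples, so the lines were taken from the titles and library descriptions. The nature of the alleles is not given in the sources used here.

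FLU is a thylakoid-bound protein that holds back chlorophyll synthesis in the dark by acting on glutamyl-tRNA reductase, the entry enzyme of tetrapyrrole synthesis. When it is lost, the precursor protochlorophyllide accumulates in darkness and passes light energy to oxygen on return to light, which gives singlet oxygen inside the chloroplast. EXECUTER1 and EXECUTER2 are chloroplast proteins known to relay singlet oxygen signals to the nucleus, where stress genes then change within minutes to hours.

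The mutated loci were read first. FLU (AT3G14110) had 17.0, 14.0 and 15.4 TPM in flu1-5 ex1, against 193, 189.9 and 189.9 TPM in flu1-1 ex1. The groups did not overlap, and the log2 difference was -3.55 (SE 0.064, limma adjusted p = 1.88e-13). Here and below a level is in TPM, the share of a library's transcripts that a gene takes after correction for transcript length, and a log2 difference is flu1-5 ex1 minus flu1-1 ex1 on log2(TPM + 1), which understates differences of low genes. EX1 (AT4G33630) transcript was listed in every library and was higher in flu1-5 ex1, with 86.3, 73.5 and 83.2 TPM in flu1-5 ex1, against 51.2, 49.1 and 52.7 TPM in flu1-1 ex1. Its log2 difference was 0.65 (SE 0.059, limma adjusted p = 1.2e-06). EX2 (AT1G27510), its relative, had 59.5, 56.8 and 58.4 TPM in flu1-5 ex1, against 55.3, 56.7 and 59.1 TPM in flu1-1 ex1, and the groups overlapped (log2 difference 0.03, limma adjusted p = 0.57). A transcript level does not show whether a mutated protein is made.

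The lines were apart in the number of genes that reached 1 TPM, which was 17800 to 17831 in flu1-5 ex1 and 17675 to 17749 in flu1-1 ex1 in light, and 17456 to 17502 in flu1-5 ex1 and 17347 to 17392 in flu1-1 ex1 in dark. The 100 highest genes took 22.8 to 23.3% of TPM in flu1-5 ex1 light libraries and 22.5 to 23.1% in those of flu1-1 ex1, and in dark 26.1 to 26.6% in flu1-5 ex1 and 27.7 to 28.2% in flu1-1 ex1. The part of these gaps in the differences below was not tested. The TPM listed summed to 929954 to 935223 in all 12. The number of reads is not in TPM values, so depth is unknown. Across genes, light libraries of the same line correlated at r of 0.9935 to 0.9943 and light libraries of different lines at 0.9668 to 0.9687. Because each line has a table of its own, a difference between lines is also a difference between tables, and the 2 cannot be told apart. Separate growth of the replicates is not stated in the labels, so a p-value here measures only how far these libraries scatter, and that scatter may be technical.

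After light, 17830 genes were tested, those that averaged 1 TPM or more across all 12 libraries. Of these 3231 were higher in flu1-5 ex1 (18.1%) and 3741 lower (21%) at a limma p under 0.05 after Benjamini-Hochberg adjustment over all genes tested, 39.1% in either direction. Below, higher, lower and called refer to that threshold. Because the filter used the mean of all libraries, a low gene could pass through its high group alone, so the counts and medians of list members given below do not speak for untested members. The 2 directions differed in size. At least 2-fold differences numbered 553 higher (3.1%) and 108 lower (0.606%), while the median of all genes was -0.02 on the log2 scale. With 3 libraries a line, the lines did not overlap at all for 8812 genes (49.4%), so that a lack of overlap is by itself common here. In the dark pair 2618 genes were higher (14.7%) and 1012 lower (5.68%), or 1832 and 1483 after quantile normalization.

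Genes known from early responses to singlet oxygen stood far higher in flu1-5 ex1. Of 21 list members 20 passed the filter on low values, 19 of them were higher and 0 lower, 18 by at least 2-fold, with a median log2 difference of 2.38. The WRKY factor gene WRKY40 (AT1G80840) had 202, 193 and 187 TPM in flu1-5 ex1, against 17.6, 15.6 and 15 TPM in flu1-1 ex1. Its libraries were separated by line with no overlap, and the log2 difference was 3.51 (SE 0.067, limma adjusted p = 2.94e-13). The ethylene response factor gene ERF6 (AT4G17490) had 104, 101 and 109 TPM in flu1-5 ex1, against 10.4, 9.82 and 9.55 TPM in flu1-1 ex1, a log2 difference of 3.28 (SE 0.067, limma adjusted p = 6.09e-13). The zinc finger gene ZAT12 (AT5G59820), induced by many oxidative stresses, had 265, 253 and 264 TPM in flu1-5 ex1, against 37.5, 35.1 and 36.6 TPM in flu1-1 ex1. All 3 flu1-5 ex1 values of ZAT12 lay above all 3 of flu1-1 ex1, and the log2 difference was 2.81 (SE 0.10, limma adjusted p = 1.74e-10). Where single libraries are not given below, levels are means ± SD of 3 libraries. The CCCH zinc finger gene SZF1 (AT3G55980) had 180.2 ± 8.58 TPM in flu1-5 ex1 and 24.9 ± 0.869 TPM in flu1-1 ex1. Its relative CZF1 (AT2G40140) had 164 ± 4.35 TPM in flu1-5 ex1 and 35.1 ± 1.64 TPM in flu1-1 ex1. BAP1 (AT3G61190), a membrane-associated inhibitor of cell death, had 15.3 ± 1.33 TPM in flu1-5 ex1 and 1.67 ± 0.214 TPM in flu1-1 ex1. Its relative BAP2 (AT2G45760) had 5.58 ± 0.121 TPM in flu1-5 ex1 and 0.951 ± 0.264 TPM in flu1-1 ex1. OXI1 (AT3G25250), a kinase of oxidative signalling, had 36.1 ± 0.888 TPM in flu1-5 ex1 and 10.9 ± 0.683 TPM in flu1-1 ex1. SIB1 (AT3G56710), a plastid-targeted partner of WRKY factors, had 37.9 ± 0.183 TPM in flu1-5 ex1 and 4.73 ± 0.346 TPM in flu1-1 ex1. The smallest called difference belonged to the ubiquitin ligase gene PUB22 (AT3G52450), with 6.52 ± 0.316 TPM in flu1-5 ex1 and 4.65 ± 0.142 TPM in flu1-1 ex1 (log2 difference 0.41, SE 0.075, limma adjusted p = 0.000647). GRXS13 (AT1G03850), a glutaredoxin gene, was not called, with 3.84, 5.08 and 2.39 TPM in flu1-5 ex1, against 3.26, 2.71 and 3.01 TPM in flu1-1 ex1, and the lines overlapped. Without the third flu1-5 ex1 light library its log2 difference was 0.44 (limma adjusted p = 0.00566). AAA-ATPase (AT3G28580) missed the filter, with 2.97, 3.0 and 2.51 TPM in flu1-5 ex1, against 0.762, 0.721 and 0.732 TPM in flu1-1 ex1. In the dark pair 17 of these 20 genes were already higher (median log2 difference 0.82), and for 18 the difference was larger in light than in dark by the interaction term of the same fit, for which 11.3% of all genes tested were called in that direction and 18.3% in the other.

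**Figure D1:**
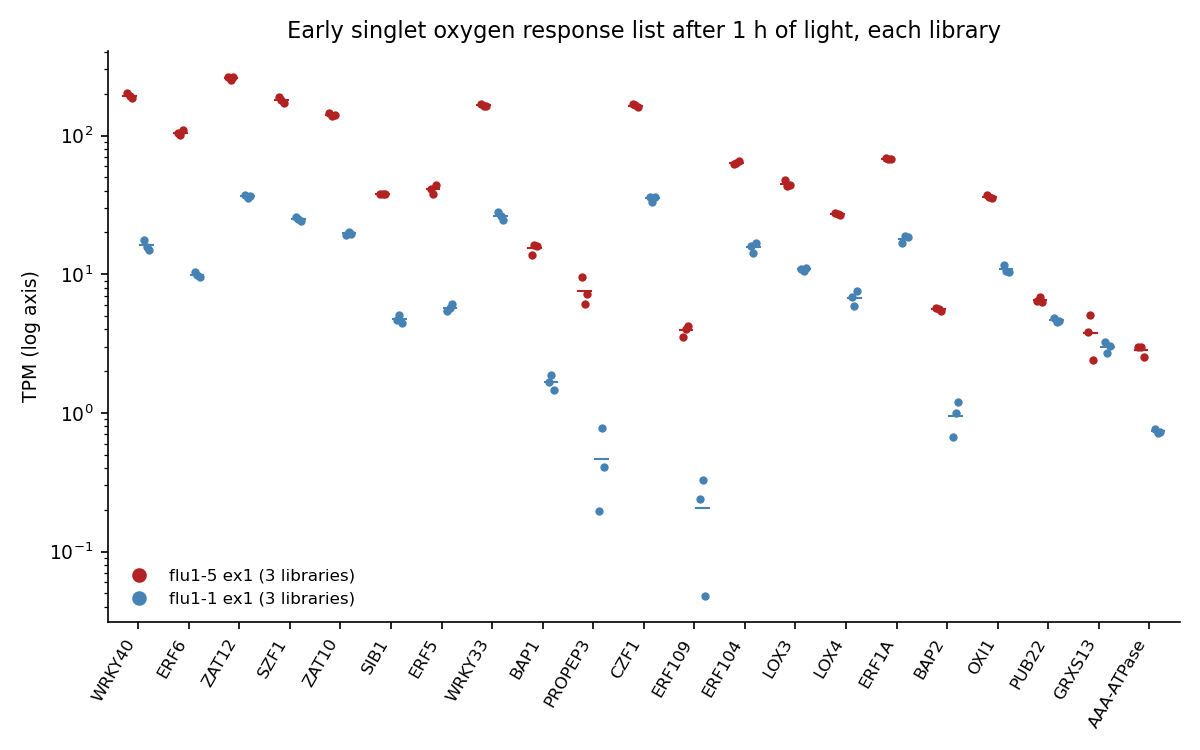
TPM on a log axis of the 21 genes of the early singlet oxygen response list after 1 h of light, ordered by log2 difference, with the untested AAA-ATPase last. Points are the 3 flu1-5 ex1 libraries (left of each pair) and the 3 flu1-1 ex1 libraries (right), and lines are means. Only for GRXS13 do values of flu1-5 ex1 and flu1-1 ex1 overlap, and WRKY40 stands at 202, 193 and 187 TPM in flu1-5 ex1 against 17.6, 15.6 and 15 TPM in flu1-1 ex1.

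Tested members of transcription factor families that act early in stress were mostly higher. The lists share members. WRKY40, WRKY33 and ZAT12, and further below LOX3, LOX4 and PROPEP3, were also counted in the early singlet oxygen list. That list holds ZAT10, ERF5, ERF6, ERF104, ERF109 and ERF1A of these families as well. Counts of different lists are therefore not separate results. All 9 tested ZAT and AZF zinc finger genes of 11 were higher, with a median log2 difference of 2.66, against 8 of 11 and a median of 1.73 with no filter on low values. ZAT8 (AT3G46080) had 62.6, 67.4 and 57.8 TPM in flu1-5 ex1, against 7.30, 6.06 and 6.34 TPM in flu1-1 ex1, with no overlap (log2 difference 3.07, SE 0.16, limma adjusted p = 7.47e-09). ZAT5 and AZF3 differed least, at 0.16 and 0.28 on the log2 scale, and after quantile normalization 7 members of the family were higher. Of 32 WRKY genes, 29 were in the joined table and 23 were tested, of which 19 were higher and 0 lower, with a median of 1.20. With no filter 21 of 29 were higher and the median was 0.59, with a pseudocount of 5 it was 0.79, and without the third flu1-1 ex1 light library 1 was lower. WRKY46 (AT2G46400), a factor of basal defence, had 102, 101 and 96.9 TPM in flu1-5 ex1, against 7.96, 8.57 and 8.77 TPM in flu1-1 ex1. That is a log2 difference of 3.42 (SE 0.074, limma adjusted p = 1.08e-12), and the lines did not overlap. WRKY33 (AT2G38470), a regulator of camalexin synthesis, had 166 ± 3.35 TPM in flu1-5 ex1 and 26.3 ± 1.60 TPM in flu1-1 ex1. WRKY18 (AT4G31800), a partner of WRKY40, had 35.4 ± 2.27 TPM in flu1-5 ex1 and 5.85 ± 2.33 TPM in flu1-1 ex1. WRKY29, WRKY50, WRKY60 and WRKY75 were not called.

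Of 28 genes for ERF factors and ethylene synthesis 24 were tested, with 20 higher and 1 lower, and a median log2 difference of 1.78, or 0.95 with a pseudocount of 5. The number lower was 2 with a pseudocount of 0.1 or after quantile normalization. ERF13 (AT2G44840) had 37.0, 34.1 and 33.0 TPM in flu1-5 ex1, against 1.80, 2.28 and 2.33 TPM in flu1-1 ex1 (log2 difference 3.51, SE 0.13, limma adjusted p = 1.44e-10). DREB2A (AT5G05410), which acts in drought and heat responses, had 141 ± 7.33 TPM in flu1-5 ex1 and 27.3 ± 1.22 TPM in flu1-1 ex1. The ethylene synthesis gene ACS6 (AT4G11280) had 45.3 ± 1.32 TPM in flu1-5 ex1 and 17.9 ± 0.704 TPM in flu1-1 ex1. The lower gene was DREB26 (AT1G21910), with 4.65, 4.12 and 4.41 TPM in flu1-5 ex1, against 6.63, 6.76 and 7.07 TPM in flu1-1 ex1 (log2 difference -0.54, SE 0.048, limma adjusted p = 1.14e-06). In dark DREB26 was higher, with 61.6 ± 0.556 TPM in flu1-5 ex1 and 42.7 ± 0.880 TPM in flu1-1 ex1. ERF105 (AT5G51190), an ERF of cold and stress responses, had the largest log2 difference of the comparison among higher genes, a rank that depends on the pseudocount, with 119, 118 and 118 TPM in flu1-5 ex1, against 0, 0 and 0 TPM in flu1-1 ex1. It was listed at 0 in the flu1-1 ex1 dark libraries as well, against 8.75, 2.35 and 10.2 TPM in flu1-5 ex1 in dark, so no fold is given, and an exact 0 in such tables can be a failed estimate. Outside these families the largest log2 difference among higher genes was that of MYB15 (AT3G23250), a MYB factor of cold and defence responses, with 65.4, 59.9 and 59.5 TPM in flu1-5 ex1, against 3.23, 2.68 and 2.34 TPM in flu1-1 ex1. The lines of MYB15 did not overlap, and the log2 difference was 4.07 (SE 0.15, limma adjusted p = 1.65e-10). In dark MYB15 had 0.345 ± 0.298 TPM in flu1-5 ex1 and 0.163 ± 0.110 TPM in flu1-1 ex1.

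Promoter sequences are shown for MYB15, near the top of the comparison, and for ZAT12 and CML37, a calmodulin-like gene described below, which were chosen after their values were seen because they hold copies of the motifs searched. Each is the 250 bases before the annotated gene start in RefSeq's TAIR10.1, read 5′ to 3′ on the gene's strand. Capitals mark TTGAC, the core bound by WRKY factors, or GAANNTTC, a minimal heat shock element, on either strand (TTGAC then reads GTCAA).
MYB15 promoter, chr3:8308959-8309208, plus strand: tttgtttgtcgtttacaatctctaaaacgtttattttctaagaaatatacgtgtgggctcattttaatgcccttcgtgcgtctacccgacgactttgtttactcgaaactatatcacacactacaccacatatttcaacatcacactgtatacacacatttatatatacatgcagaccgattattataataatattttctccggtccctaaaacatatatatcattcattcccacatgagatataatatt
ZAT12 promoter, chr5:24102564-24102813, plus strand: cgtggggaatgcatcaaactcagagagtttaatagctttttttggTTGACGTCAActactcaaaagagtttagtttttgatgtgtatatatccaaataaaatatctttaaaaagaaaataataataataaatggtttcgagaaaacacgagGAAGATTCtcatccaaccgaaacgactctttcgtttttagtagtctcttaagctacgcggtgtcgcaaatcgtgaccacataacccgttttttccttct
CML37 promoter, chr5:16943821-16944070, minus strand: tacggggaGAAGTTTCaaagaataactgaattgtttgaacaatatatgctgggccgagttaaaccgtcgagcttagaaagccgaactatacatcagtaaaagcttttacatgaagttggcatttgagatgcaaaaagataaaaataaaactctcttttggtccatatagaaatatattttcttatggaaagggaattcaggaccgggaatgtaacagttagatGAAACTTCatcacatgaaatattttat
The ZAT12 sequence holds 2 TTGAC side by side on opposite strands and 1 GAANNTTC, that of CML37 2 GAANNTTC, and that of MYB15 none of the motifs. GCCGCC, the core bound by ERF factors, and CACGTG, the G-box, were searched as well on both strands and occur in none of the 3. Across genes, at least 1 TTGAC was found in 64.4% of the 550 promoters of genes at least 2-fold higher in flu1-5 ex1, in 44.4% of the 108 of genes at least 2-fold lower, and in 44.6% of the 17695 of all genes tested. GAANNTTC was found in 18.2%, 9.26% and 9.27% of the same groups, GCCGCC in 4.18%, 0.926% and 2.00%, and CACGTG in 9.27%, 9.26% and 7.39%. These shares are descriptions of letters in a fixed window and were not tested.

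Genes of calcium signalling, touch and kinase cascades were higher in flu1-5 ex1. Of 16 calcium and touch genes 14 were tested, with 13 higher and 0 lower and a median log2 difference of 1.81. CML37 (AT5G42380) had 65.8, 63.1 and 56.9 TPM in flu1-5 ex1, against 3.86, 3.31 and 3.56 TPM in flu1-1 ex1. No overlap was seen, and the log2 difference was 3.78 (SE 0.089, limma adjusted p = 2.33e-12). In dark CML37 had 0.156 ± 0.0545 TPM in flu1-5 ex1 and 0.0472 ± 0.0464 TPM in flu1-1 ex1. CML38 (AT1G76650), its close relative, had 69.1, 58.2 and 56.0 TPM in flu1-5 ex1, against 3.74, 3.20 and 3.82 TPM in flu1-1 ex1 (log2 difference 3.76, SE 0.13, limma adjusted p = 1.89e-10). The cell wall gene TCH4 (AT5G57560), a xyloglucan endotransglucosylase induced by touch, had 249 ± 6.06 TPM in flu1-5 ex1 and 24.5 ± 2.09 TPM in flu1-1 ex1. CML12 (AT2G41100), also known as TCH3, was the most abundant member, with 1165 ± 26.4 TPM in flu1-5 ex1 and 313 ± 1.97 TPM in flu1-1 ex1. The calcium pump gene ACA13 (AT3G22910) had 16.8 ± 0.701 TPM in flu1-5 ex1 and 1.45 ± 0.0298 TPM in flu1-1 ex1. The related gene ACA12 (AT3G63380) had 10.6 ± 0.608 TPM in flu1-5 ex1 and 3.48 ± 0.175 TPM in flu1-1 ex1. Of 13 genes for MAP kinase cascades and RBOH oxidases 10 were tested, with 8 higher and 0 lower and a median of 1.14, against 9 of 13 and a median of 0.57 with no filter. MPK3 (AT3G45640), a kinase of stress and immune signalling, had 251, 248 and 239 TPM in flu1-5 ex1, against 56.2, 54.0 and 52.6 TPM in flu1-1 ex1. Its log2 difference was 2.16 (SE 0.037, limma adjusted p = 1.38e-13), without overlap. MPK11 (AT1G01560) had 11.1 ± 0.708 TPM in flu1-5 ex1 and 1.15 ± 0.130 TPM in flu1-1 ex1. MPK6, the partner of MPK3, was not called. MPK6 (AT2G43790) had 44.8 ± 1.90 TPM in flu1-5 ex1 and 43.5 ± 1.66 TPM in flu1-1 ex1. RBOHD (AT5G47910), the main NADPH oxidase of stress-induced superoxide production, had 102 ± 5.05 TPM in flu1-5 ex1 and 23.2 ± 0.772 TPM in flu1-1 ex1. RBOHF (AT1G64060), a second oxidase, had 6.0 ± 0.0653 TPM in flu1-5 ex1 and 5.0 ± 0.0991 TPM in flu1-1 ex1.

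The 15 largest higher differences among genes at or above the median level in light, a mean of 15.4 TPM, held 7 genes described above, ERF105, MYB15, CML37, CML38, WRKY40, ERF13 and WRKY46. The remaining 8 were 3 named genes and 5 known here only by identifier. FBS1 (AT1G61340), an F-box gene induced by stress, had 155, 143 and 144 TPM in flu1-5 ex1, against 13.7, 10.6 and 12.4 TPM in flu1-1 ex1. PBP1 (AT5G54490), a calcium-binding partner of the PINOID kinase, had 72.5 ± 1.03 TPM in flu1-5 ex1 and 6.48 ± 0.410 TPM in flu1-1 ex1. PP2-B14 (AT1G56250), a gene of the phloem protein 2 family, had 49.0 ± 2.50 TPM in flu1-5 ex1 and 3.27 ± 0.740 TPM in flu1-1 ex1. In these 3 genes the lines did not overlap, and the log2 differences were 3.49, 3.30 and 3.56. AT4G29780 had 124 ± 3.80 TPM in flu1-5 ex1 and 8.54 ± 0.0993 TPM in flu1-1 ex1, and AT1G05575 had 63.6 ± 2.71 TPM in flu1-5 ex1 and 5.11 ± 1.53 TPM in flu1-1 ex1. AT5G52760 had 33.8 ± 2.84 TPM in flu1-5 ex1 and 2.12 ± 0.909 TPM in flu1-1 ex1. AT2G32200 had 56.4 ± 5.76 TPM in flu1-5 ex1 and 4.66 ± 0.196 TPM in flu1-1 ex1. AT1G47130 had 233 ± 7.55 TPM in flu1-5 ex1 and 15.6 ± 8.46 TPM in flu1-1 ex1. All 15 were called, with limma adjusted p of at most 3.79e-05.

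**Figure D2:**
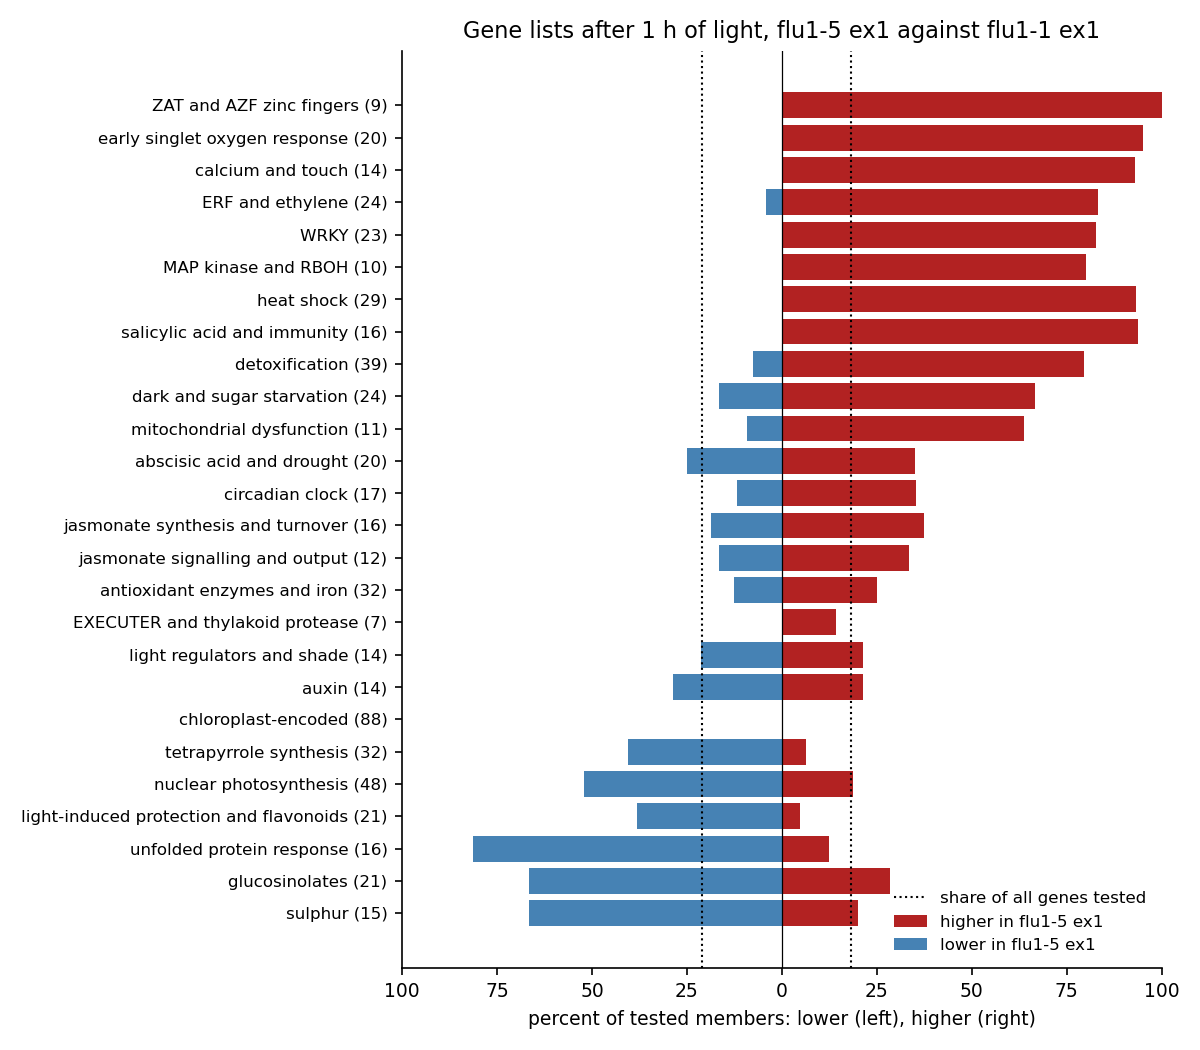
Share of tested members of each gene list called higher (right, red) or lower (left, blue) in flu1-5 ex1 than in flu1-1 ex1 after 1 h of light, with the number tested in brackets and lists ordered by median log2 difference. Dotted lines mark the shares of all genes tested, 18.1% higher and 21% lower. Lists at the top are mainly higher, such as heat shock with 27 of 29, and those at the bottom mainly lower, such as the unfolded protein response with 13 of 16.

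Heat shock genes, which code for chaperones and the factors that induce them, were higher after light in flu1-5 ex1. Of 32 members 29 were tested, with 27 higher and 0 lower, 13 of them by at least 2-fold, and a median log2 difference of 0.95. In dark 5 were higher and 6 lower, with a median of -0.05, and for 25 of 29 the difference was larger in light by the interaction term. In dark 3 of the 32 members were listed at 0 in all libraries of flu1-5 ex1, and 3 in those of flu1-1 ex1. HSP22 had 0.0227 TPM in flu1-5 ex1 and 0.0235 TPM in flu1-1 ex1 in dark. On log2(TPM + 1) such low members can differ little in dark, which limits the reading of the dark median and the interaction term. HSP17.6C (AT1G53540), a small heat shock protein of the cytosol, had 112, 109 and 101 TPM in flu1-5 ex1, against 16.9, 16.1 and 12.9 TPM in flu1-1 ex1. The lines did not overlap, and the log2 difference was 2.74 (SE 0.14, limma adjusted p = 3.91e-09). HSP17.4 (AT3G46230) had 157 ± 4.82 TPM in flu1-5 ex1 and 27.7 ± 2.08 TPM in flu1-1 ex1. HSP22 (AT4G10250), which is targeted to the endoplasmic reticulum, had 9.01 ± 1.46 TPM in flu1-5 ex1 and 0.683 ± 0.291 TPM in flu1-1 ex1. HSP21 (AT4G27670), the small heat shock protein of the chloroplast, had 6.59 ± 0.997 TPM in flu1-5 ex1 and 0.488 ± 0.0800 TPM in flu1-1 ex1, and was listed at 0 in all 6 dark libraries. BAG6 (AT2G46240), a co-chaperone, had 109, 101 and 102 TPM in flu1-5 ex1, against 19.3, 20.1 and 20.7 TPM in flu1-1 ex1. HSP101 (AT1G74310), which dissolves aggregates, had 391 ± 16.0 TPM in flu1-5 ex1 and 182 ± 3.19 TPM in flu1-1 ex1 (log2 difference 1.09). The most abundant member, HSP70-4 (AT3G12580) had 1269.9 ± 7.25 TPM in flu1-5 ex1 and 949.8 ± 4.59 TPM in flu1-1 ex1 (log2 difference 0.42). Among the heat shock factor genes, HSFA3 (AT5G03720) had 14.0 ± 0.128 TPM in flu1-5 ex1 and 5.03 ± 0.370 TPM in flu1-1 ex1. HSFA2 (AT2G26150) had 89.4 ± 4.36 TPM in flu1-5 ex1 and 63.3 ± 7.42 TPM in flu1-1 ex1. HSP18.2 and the chloroplast gene CLPB3 were not called. Reads of the near-identical HSP17.6 genes may be shared between copies, so their single values are uncertain.

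Genes of the unfolded protein response, the set that serves folding in the endoplasmic reticulum, went the other way. Of 17 members 16 were tested, with 13 lower and 2 higher and a median log2 difference of -0.34. CNX1 (AT5G61790), the lectin chaperone calnexin, had 238, 235 and 233 TPM in flu1-5 ex1, against 303, 313 and 313 TPM in flu1-1 ex1. Its lines did not overlap, and the log2 difference was -0.39 (SE 0.026, limma adjusted p = 5.34e-08). The largest lower differences were those of HSP90.7 and CRT1A. HSP90.7 (AT4G24190), a chaperone of the endoplasmic reticulum, had 110.2 ± 7.28 TPM in flu1-5 ex1 and 153 ± 15.3 TPM in flu1-1 ex1. CRT1A (AT1G56340), a calreticulin gene, had 68.2 ± 5.79 TPM in flu1-5 ex1 and 93.8 ± 6.72 TPM in flu1-1 ex1. BIP1 and BIP2 are near-identical chaperone genes, so their values may be split between copies. BIP1 (AT5G28540) had 289 ± 2.67 TPM in flu1-5 ex1 and 348 ± 9.55 TPM in flu1-1 ex1, and BIP2 (AT5G42020) had 206 ± 2.14 TPM in flu1-5 ex1 and 263 ± 6.70 TPM in flu1-1 ex1. The 2 higher members were BZIP60 and ERDJ3A. BZIP60 (AT1G42990), a transcription factor of this response, had 123 ± 1.86 TPM in flu1-5 ex1 and 80.8 ± 3.21 TPM in flu1-1 ex1. ERDJ3A (AT3G08970), a co-chaperone gene, had 34.2 ± 4.35 TPM in flu1-5 ex1 and 15.1 ± 4.09 TPM in flu1-1 ex1. In dark 2 members were higher and 3 lower, and for 9 of 16 the interaction term was lower in light.

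**Figure D3:**
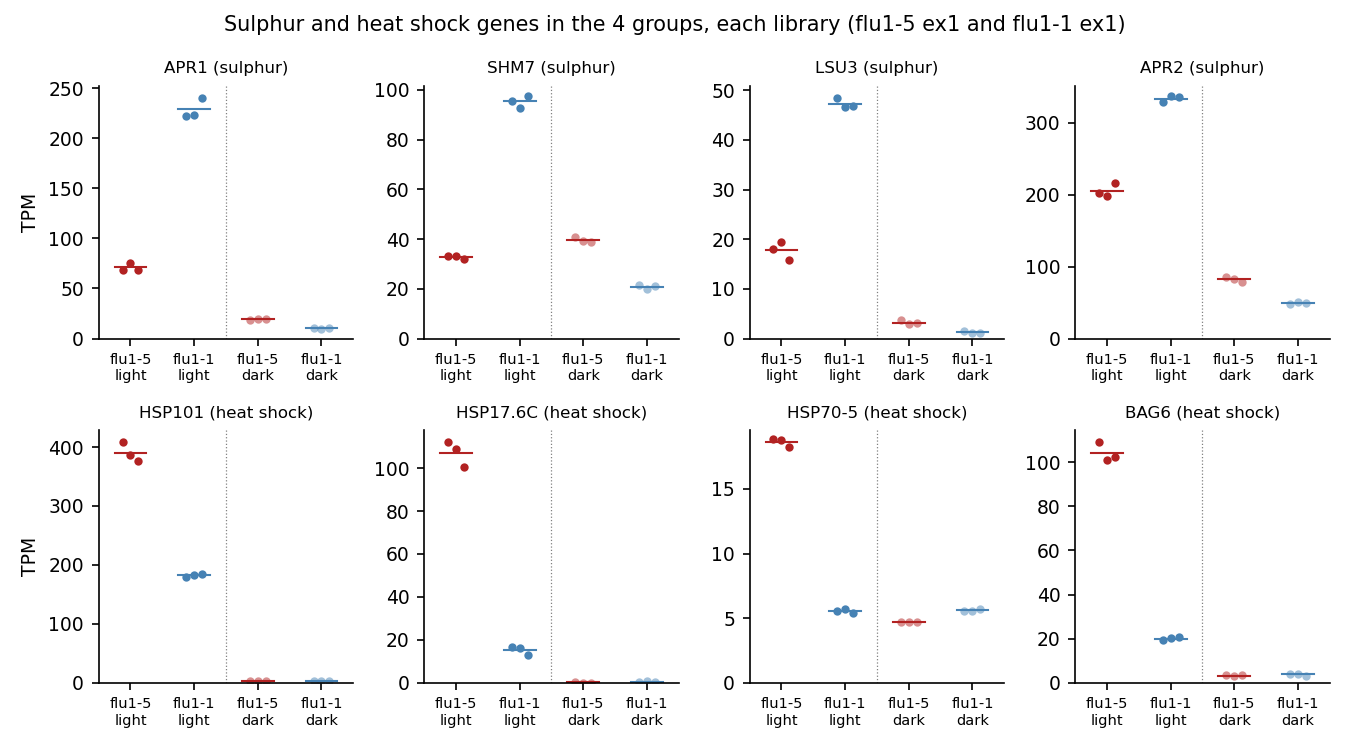
TPM of 4 sulphur genes (top) and 4 heat shock genes (bottom), chosen after their values were seen, in flu1-5 ex1 light, flu1-1 ex1 light, flu1-5 ex1 dark and flu1-1 ex1 dark. Points are single libraries, 3 per group, and lines are means. APR1 stood at 68.9, 75.7 and 68.7 TPM in flu1-5 ex1 against 223, 223 and 241 TPM in flu1-1 ex1 in light, and at 18.4, 19.0 and 19.6 TPM in flu1-5 ex1 against 10.7, 9.91 and 10.7 TPM in flu1-1 ex1 in dark.

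Sulphur genes were mostly lower in flu1-5 ex1 after light, and in dark those called were higher in flu1-5 ex1. Of 19 members 15 were tested, with 10 lower and 3 higher in light, 8 lower by at least 2-fold, and a median log2 difference of -1.30, or -0.59 with no filter. In dark 9 were higher and 0 lower, with a median of 0.46, and the interaction term was lower in light for 10. APR1 (AT4G04610), a reductase of activated sulphate, had 68.9, 75.7 and 68.7 TPM in flu1-5 ex1, against 223, 223 and 241 TPM in flu1-1 ex1. The lines did not overlap, and the log2 difference was -1.67 (SE 0.050, limma adjusted p = 1.68e-11), whereas in dark it was 0.81 (SE 0.050, limma adjusted p = 8.55e-08). SDI1 (AT5G48850), a repressor of glucosinolate synthesis that is induced by sulphur shortage, had 11.7, 13.0 and 14.4 TPM in flu1-5 ex1, against 43.7, 42.2 and 45.5 TPM in flu1-1 ex1. GGCT2.1 (AT5G26220), an enzyme of glutathione breakdown, had the largest difference of the list, with 5.11, 4.92 and 4.36 TPM in flu1-5 ex1, against 20.4, 16.9 and 20.7 TPM in flu1-1 ex1 (log2 difference -1.81, SE 0.11, limma adjusted p = 2.86e-08). SHM7 (AT1G36370), a serine hydroxymethyltransferase gene, had 32.8 ± 0.791 TPM in flu1-5 ex1 and 95.4 ± 2.43 TPM in flu1-1 ex1 in light. Levels of SHM7 in dark were 39.7 ± 1.12 TPM in flu1-5 ex1 and 20.9 ± 0.729 TPM in flu1-1 ex1. The LSU genes are markers of sulphur shortage, and values of such similar genes may be split between copies. LSU1 (AT3G49580) had 16.3 ± 3.05 TPM in flu1-5 ex1 and 42.2 ± 2.67 TPM in flu1-1 ex1. LSU2 (AT5G24660) had 66.3 ± 3.81 TPM in flu1-5 ex1 and 164 ± 7.85 TPM in flu1-1 ex1. LSU3 (AT3G49570) had 17.8 ± 1.81 TPM in flu1-5 ex1 and 47.3 ± 1.05 TPM in flu1-1 ex1. The 3 higher members act elsewhere in the pathway. APS1 (AT3G22890) codes for ATP sulphurylase, which activates sulphate, and GSH1 (AT4G23100) and GSH2 (AT5G27380) for the enzymes of glutathione synthesis. APS1 had 407 ± 6.01 TPM in flu1-5 ex1 and 316 ± 2.25 TPM in flu1-1 ex1. GSH1 had 303 ± 1.86 TPM in flu1-5 ex1 and 272 ± 1.06 TPM in flu1-1 ex1, and GSH2 had 165 ± 1.96 TPM in flu1-5 ex1 and 128 ± 2.06 TPM in flu1-1 ex1.

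Glucosinolate genes, which make the sulphur-rich defence compounds of the cabbage family, went both ways. Of 23 members 21 were tested, with 14 lower and 6 higher and a median log2 difference of -0.44. The lower ones were led by genes of the methionine-derived branch. BCAT4 (AT3G19710), its first enzyme, had 20.9, 16.2 and 20.1 TPM in flu1-5 ex1, against 49.3, 47.2 and 49.6 TPM in flu1-1 ex1, and the lines did not overlap (log2 difference -1.32, SE 0.073, limma adjusted p = 9.19e-09). CYP79F1 (AT1G16410) had 4.77 ± 0.222 TPM in flu1-5 ex1 and 12.3 ± 0.971 TPM in flu1-1 ex1, and CYP83A1 (AT4G13770) had 56.6 ± 1.15 TPM in flu1-5 ex1 and 102 ± 2.03 TPM in flu1-1 ex1. MYB29 (AT5G07690), a regulator of the branch, had 6.76 ± 0.284 TPM in flu1-5 ex1 and 12.7 ± 1.17 TPM in flu1-1 ex1. The higher ones included genes of the tryptophan-derived branch. CYP81F2 (AT5G57220), which modifies indole glucosinolates in defence, had 48.4 ± 1.34 TPM in flu1-5 ex1 and 16.4 ± 0.349 TPM in flu1-1 ex1. Its regulator MYB51 (AT1G18570) had 28.0 ± 0.310 TPM in flu1-5 ex1 and 9.79 ± 1.34 TPM in flu1-1 ex1. CYP79B3 of the same branch was lower. CYP79B3 (AT2G22330) had 19.0 ± 0.25 TPM in flu1-5 ex1 and 22.4 ± 0.317 TPM in flu1-1 ex1. The difference between branches was not tested.

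Hormone genes were higher in part. Among all genes tested 18.1% were higher and 21% lower, and the share lower in both jasmonate lists was near the latter. Of 21 genes for jasmonate synthesis and turnover 16 were tested, with 6 higher and 3 lower and a median log2 difference of 0.11. AOC3 (AT3G25780), an allene oxide cyclase gene, had 48.1, 42.0 and 45.8 TPM in flu1-5 ex1, against 6.27, 6.63 and 7.65 TPM in flu1-1 ex1. The lines were apart, and the log2 difference was 2.56 (SE 0.092, limma adjusted p = 1.17e-10). The lipoxygenase gene LOX3 (AT1G17420) had 45.0 ± 2.59 TPM in flu1-5 ex1 and 10.8 ± 0.314 TPM in flu1-1 ex1, and LOX4 (AT1G72520) had 27.2 ± 0.644 TPM in flu1-5 ex1 and 6.78 ± 0.845 TPM in flu1-1 ex1. LOX2, the main lipoxygenase of wounded leaves, was lower. LOX2 (AT3G45140) had 67.6 ± 2.28 TPM in flu1-5 ex1 and 93.8 ± 1.84 TPM in flu1-1 ex1. ST2A (AT5G07010), a sulphotransferase of hydroxyjasmonate, was also lower, with 0.259 ± 0.124 TPM in flu1-5 ex1 and 0.631 ± 0.163 TPM in flu1-1 ex1. That call was lost without the first flu1-1 ex1 light library (limma adjusted p = 0.0636), without the second of flu1-5 ex1 (limma adjusted p = 0.0617) and with a pseudocount of 5 (limma adjusted p = 0.0708). Of 12 tested genes of jasmonate signalling, from 15, 4 were higher and 2 lower, with 2 higher among genes that averaged at least 5 TPM. The repressor gene JAZ1 (AT1G19180) had 36.8 ± 1.08 TPM in flu1-5 ex1 and 14.2 ± 0.963 TPM in flu1-1 ex1. The related gene JAZ5 (AT1G17380) had 6.57 ± 0.387 TPM in flu1-5 ex1 and 1.58 ± 0.427 TPM in flu1-1 ex1. JAZ3, of the same family, was lower. JAZ3 (AT3G17860) had 5.29 ± 0.427 TPM in flu1-5 ex1 and 9.46 ± 0.292 TPM in flu1-1 ex1. MYC2 (AT1G32640), the main activator, had 42.4, 38.5 and 39.3 TPM in flu1-5 ex1, against 21.9, 21.4 and 18.7 TPM in flu1-1 ex1 in light and 5.01, 7.02 and 3.58 TPM in flu1-5 ex1, against 0, 0.0182 and 0 TPM in flu1-1 ex1 in dark. As for ERF105, such values at or near 0 can be failed estimates and do not show that the transcript was absent.

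Immunity genes that passed the filter were mostly higher, 15 of 16 tested with 0 lower and a median log2 difference of 0.72, or 0.46 with a pseudocount of 5, out of 28 members of which 26 were in the joined table. SARD1 (AT1G73805), which activates genes of salicylic acid synthesis, had 13.8 ± 0.677 TPM in flu1-5 ex1 and 1.48 ± 0.116 TPM in flu1-1 ex1. CBP60G (AT5G26920), its relative, had 22.3 ± 0.598 TPM in flu1-5 ex1 and 4.0 ± 0.172 TPM in flu1-1 ex1. ICS1 (AT1G74710), the synthesis gene itself, was not called, with 5.49 ± 0.127 TPM in flu1-5 ex1 and 4.97 ± 0.202 TPM in flu1-1 ex1. EDS1 and NPR1 act in salicylic acid signalling. EDS1 (AT3G48090) had 23.0 ± 1.40 TPM in flu1-5 ex1 and 9.53 ± 0.780 TPM in flu1-1 ex1. NPR1 (AT1G64280) had 32.4 ± 0.959 TPM in flu1-5 ex1 and 18.4 ± 0.228 TPM in flu1-1 ex1. PROPEP3 (AT5G64905), the precursor of a danger peptide, had 9.55, 6.07 and 7.21 TPM in flu1-5 ex1, against 0.195, 0.780 and 0.408 TPM in flu1-1 ex1. The late marker gene PR1 (AT2G14610) was among the untested, with 0, 0.0834 and 0 TPM in flu1-5 ex1, against 0, 0 and 0 TPM in flu1-1 ex1. Abscisic acid genes were mixed, with 7 of 20 tested higher and 5 lower, from 21, or 4 higher among genes that averaged at least 5 TPM. Beside 18.1% higher and 21% lower among all genes tested, the share lower was near that of all genes, and single members are given as a description. CYP707A3 (AT5G45340), which breaks abscisic acid down, had 16.2, 16.7 and 16.7 TPM in flu1-5 ex1, against 0.817, 1.10 and 0.871 TPM in flu1-1 ex1. Its log2 difference was 3.19 (SE 0.10, limma adjusted p = 4.5e-11), with no overlap. The stress markers RD26 and RD29A were lower. RD26 (AT4G27410) had 3.86 ± 0.20 TPM in flu1-5 ex1 and 7.64 ± 0.817 TPM in flu1-1 ex1. RD29A (AT5G52310) had 47.7 ± 1.52 TPM in flu1-5 ex1 and 83.1 ± 1.96 TPM in flu1-1 ex1. Of 14 tested auxin genes, from 19, 3 were higher and 4 lower, shares near those of all genes, and 5 were higher without the first flu1-5 ex1 light library. IAA1 (AT4G14560), a repressor of auxin signalling, had 11.5 ± 0.987 TPM in flu1-5 ex1 and 20.6 ± 0.514 TPM in flu1-1 ex1. IAA19 (AT3G15540), of the same family, had 6.54 ± 0.918 TPM in flu1-5 ex1 and 4.40 ± 0.448 TPM in flu1-1 ex1. That call was lost when any 1 of 4 light libraries was left out (limma adjusted p 0.0598 to 0.102).

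Detoxification genes were mostly higher. Of 41 members 39 were tested, with 31 higher and 3 lower and a median log2 difference of 0.60. ANAC102 (AT5G63790), a NAC factor of this response, had 319.9, 301 and 317 TPM in flu1-5 ex1, against 67.5, 67.0 and 66.1 TPM in flu1-1 ex1. Its log2 difference was 2.21 (SE 0.031, limma adjusted p = 2.88e-14), and the lines did not overlap. The glutathione transferase gene GSTU12 (AT1G69920) had 15 ± 0.160 TPM in flu1-5 ex1 and 3.21 ± 0.170 TPM in flu1-1 ex1. The glucosyltransferase gene UGT73B4 (AT2G15490) had 34.2 ± 1.12 TPM in flu1-5 ex1 and 10.3 ± 0.929 TPM in flu1-1 ex1. OPR1 (AT1G76680), a reductase of reactive oxylipins, had 318 ± 30.1 TPM in flu1-5 ex1 and 129 ± 8.79 TPM in flu1-1 ex1. GSTU20 (AT1G78370) was the lowest, with 68.6 ± 1.21 TPM in flu1-5 ex1 and 115 ± 3.01 TPM in flu1-1 ex1 (log2 difference -0.74). Of 32 antioxidant and iron genes tested from 33, 8 were higher and 4 lower, none by 2-fold, with a median of 0.03, beside 18.1% higher and 21% lower among all genes tested. Without the first flu1-5 ex1 light library or the first of flu1-1 ex1, 2 were lower. APX1 (AT1G07890), cytosolic ascorbate peroxidase, had 961 ± 19.5 TPM in flu1-5 ex1 and 871 ± 6.42 TPM in flu1-1 ex1. The ferritin gene FER1 (AT5G01600) had 223 ± 2.73 TPM in flu1-5 ex1 and 183 ± 1.90 TPM in flu1-1 ex1. DHAR1 (AT1G19570), a dehydroascorbate reductase gene, had 176 ± 1.95 TPM in flu1-5 ex1 and 250.2 ± 11.7 TPM in flu1-1 ex1. The catalase gene CAT2 (AT4G35090) had 973 ± 11.2 TPM in flu1-5 ex1 and 890.0 ± 4.52 TPM in flu1-1 ex1. Among genes that respond to mitochondrial dysfunction, 7 of 11 tested were higher and 1 lower, from 13, or 2 lower with no filter or when light was fitted alone. DIC2 (AT4G24570), a dicarboxylate carrier, had 126 ± 5.08 TPM in flu1-5 ex1 and 20.7 ± 0.632 TPM in flu1-1 ex1 in light. Levels of DIC2 in dark were 57.7 ± 3.57 TPM in flu1-5 ex1 and 7.74 ± 0.709 TPM in flu1-1 ex1, and its interaction term was not called (limma adjusted p = 0.0987). AOX1A (AT3G22370), the alternative oxidase, had 141 ± 1.35 TPM in flu1-5 ex1 and 101 ± 1.58 TPM in flu1-1 ex1 in light. Levels of AOX1A in dark were 57.2 ± 0.688 TPM in flu1-5 ex1 and 24.9 ± 0.520 TPM in flu1-1 ex1.

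Nuclear genes of tetrapyrrole synthesis and photosynthesis were mostly lower where called. In tetrapyrrole synthesis 32 of 33 members were tested, with 2 higher and 13 lower, FLU among them, and a median log2 difference of -0.09. The 2 higher genes belong to the entry step and the heme branch. HEMA2 (AT1G09940), the minor glutamyl-tRNA reductase gene, had 34.0, 32.4 and 33.2 TPM in flu1-5 ex1, against 12.2, 11.3 and 10.1 TPM in flu1-1 ex1. FC1 (AT5G26030), a ferrochelatase gene expressed also outside green tissue, had 145, 143 and 139 TPM in flu1-5 ex1, against 57.8, 56.9 and 58.5 TPM in flu1-1 ex1. The lines of both genes were apart, with log2 differences of 1.49 and 1.29 (SE 0.060 and 0.033, limma adjusted p = 3.25e-10 and 3.95e-12). HEMA1, the main gene of that step, was not called, nor was FC2. HEMA1 (AT1G58290) had 161 ± 3.73 TPM in flu1-5 ex1 and 159.9 ± 5.34 TPM in flu1-1 ex1. FC2 (AT2G30390) had 92.8 ± 0.518 TPM in flu1-5 ex1 and 92.1 ± 1.19 TPM in flu1-1 ex1. HEME1 (AT3G14930), a uroporphyrinogen decarboxylase gene, had 32.2 ± 4.22 TPM in flu1-5 ex1 and 57.5 ± 2.20 TPM in flu1-1 ex1. PORB (AT4G27440), which reduces protochlorophyllide in light, had 161 ± 4.62 TPM in flu1-5 ex1 and 237 ± 15.2 TPM in flu1-1 ex1.

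Of 49 nuclear photosynthesis genes 48 were tested, with 25 lower and 9 higher in light and a median log2 difference of -0.10, against 32 lower and 6 higher in dark and a median of -0.23. Without the second flu1-5 ex1 light library 5 were higher in light. The interaction term was higher for 23, so that for these the difference in light was less negative than in dark or more positive. LHCB3 (AT5G54270), an antenna protein of photosystem II, had 598, 589 and 596 TPM in flu1-5 ex1, against 919.6, 909 and 925 TPM in flu1-1 ex1 in light and 803, 844 and 767 TPM in flu1-5 ex1, against 1794, 1823 and 1837 TPM in flu1-1 ex1 in dark. The lines did not overlap in either, with log2 differences of -0.63 and -1.18 (limma adjusted p = 1.65e-09 and 1.5e-11). LHCB2.2 (AT2G05070) had 153 ± 3.81 TPM in flu1-5 ex1 and 276 ± 4.85 TPM in flu1-1 ex1 in light. The Rubisco small subunit genes RBCS1B and RBCS2B were higher, although near-identical copies may share reads. RBCS1B (AT5G38430) had 5726 ± 187 TPM in flu1-5 ex1 and 4466 ± 111 TPM in flu1-1 ex1. RBCS2B (AT5G38420) had 7779 ± 115 TPM in flu1-5 ex1 and 6245 ± 119.7 TPM in flu1-1 ex1. After quantile normalization its log2 difference was exactly 0. That method gives a gene of the same rank in every library the same value, so it cannot show a difference for such a gene. None of 88 chloroplast-encoded genes was called by limma, with 0 at an unadjusted p under 0.05 and a median of -0.06. Chloroplast genes made up 1.22 to 1.83% of TPM in flu1-5 ex1 light libraries and 1.36 to 1.72% in those of flu1-1 ex1. Without the first flu1-5 ex1 light library, which had the 1.83%, 1 was lower and the median was -0.23, and without the third of flu1-1 ex1 or the second of flu1-5 ex1 the median was 0.07 and 0.10. In the thylakoid protease list, 0 of 5 FTSH and DEG genes tested were called in light.

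Light-induced protection and flavonoid genes were mostly lower where called, 8 lower and 1 higher of 21 tested from 25, with a median log2 difference of -0.16, or -0.06 with no filter. PAP1 (AT1G56650), a MYB activator of anthocyanin synthesis, had 2.34, 2.14 and 1.71 TPM in flu1-5 ex1, against 7.73, 8.23 and 8.59 TPM in flu1-1 ex1. Its log2 difference was -1.59 (SE 0.10, limma adjusted p = 5.26e-08), and the lines did not overlap. PAP2 (AT1G66390), its relative, had 1.09 ± 0.142 TPM in flu1-5 ex1 and 3.24 ± 0.190 TPM in flu1-1 ex1. CHS (AT5G13930), chalcone synthase, had 58.2 ± 0.958 TPM in flu1-5 ex1 and 99.4 ± 1.49 TPM in flu1-1 ex1. ELIP1 (AT3G22840), an early light-induced protein, had 40.5 ± 1.55 TPM in flu1-5 ex1 and 59.9 ± 2.30 TPM in flu1-1 ex1. ELIP2 was not called. ELIP2 (AT4G14690) had 116 ± 6.58 TPM in flu1-5 ex1 and 131 ± 4.32 TPM in flu1-1 ex1. The higher gene was OHP2, at a log2 difference of 0.10, a call lost under 7 of the alternatives. Light regulators had 3 higher and 3 lower of 14, shares near the 18.1% and 21% of all genes tested, and single members are given as a description. XTH15 (AT4G14130), a shade-induced cell wall gene, had 5.12 ± 0.703 TPM in flu1-5 ex1 and 1.93 ± 0.312 TPM in flu1-1 ex1. HYH (AT3G17609), a relative of HY5, had 71.0 ± 1.85 TPM in flu1-5 ex1 and 46.2 ± 2.13 TPM in flu1-1 ex1. PIF3, a phytochrome-interacting factor, was lower. PIF3 (AT1G09530) had 3.58 ± 0.492 TPM in flu1-5 ex1 and 5.60 ± 0.252 TPM in flu1-1 ex1. Clock genes had 6 of 17 tested higher and 2 lower, beside 18.1% higher and 21% lower among all genes tested. Without the first or without the third flu1-1 ex1 light library 3 were higher, a share near that of all genes. BOA (AT5G59570), a relative of the evening factor LUX, had 17.9 ± 0.773 TPM in flu1-5 ex1 and 11.7 ± 0.815 TPM in flu1-1 ex1. PRR7 (AT5G02810), a repressor of the morning genes, had 9.55 ± 0.815 TPM in flu1-5 ex1 and 12.9 ± 0.547 TPM in flu1-1 ex1.

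Genes of darkness and sugar starvation were mostly higher in flu1-5 ex1 after light, and in dark those called were lower in flu1-5 ex1. Of 25 members 24 were tested, with 16 higher and 4 lower in light and a median log2 difference of 0.43 (0.26 with a pseudocount of 5), against 0 higher and 16 lower in dark and a median of -0.34. DYL1 (AT1G28330), a dormancy-associated gene, had 58.7, 49.1 and 59.7 TPM in flu1-5 ex1, against 18.8, 25.5 and 33.8 TPM in flu1-1 ex1. DIN11 (AT3G49620), a dark-inducible gene, had 40.5, 43.1 and 39.3 TPM in flu1-5 ex1, against 21.0, 20.7 and 19.8 TPM in flu1-1 ex1 in light. Levels of DIN11 in dark were 45.2 ± 1.59 TPM in flu1-5 ex1 and 52.3 ± 1.61 TPM in flu1-1 ex1. TPS11 (AT2G18700), a class II trehalose phosphate synthase gene, had 8.0 ± 0.170 TPM in flu1-5 ex1 and 4.08 ± 0.239 TPM in flu1-1 ex1. The lines of these 3 genes did not overlap in light, and their log2 differences were 1.10, 0.96 and 0.83. Against the trend of the list, BT2 and SEN1 were lower. BT2 (AT3G48360) had 10.8 ± 1.27 TPM in flu1-5 ex1 and 18.4 ± 1.41 TPM in flu1-1 ex1. SEN1 (AT4G35770) had 517 ± 9.72 TPM in flu1-5 ex1 and 817 ± 13.9 TPM in flu1-1 ex1.

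The 15 largest lower differences at or above the median level included FLU, the sulphur genes SDI1, APR1, SHM7 and SDI2, and 10 others. AT3G01345 had 0.994, 1.07 and 0.555 TPM in flu1-5 ex1, against 268, 255 and 256 TPM in flu1-1 ex1 in light. In dark it had 1.01, 0.617 and 0.770 TPM in flu1-5 ex1, against 153, 155 and 150.5 TPM in flu1-1 ex1. MRD1 (AT1G53480) had 0.239, 0.230 and 0.179 TPM in flu1-5 ex1, against 49.8, 53.9 and 54.4 TPM in flu1-1 ex1 in light. Levels of MRD1 in dark were 0.569 ± 0.528 TPM in flu1-5 ex1 and 59.3 ± 0.899 TPM in flu1-1 ex1. In both genes the lines were far apart in light and in dark, with log2 differences in light of -7.13 and -5.46 (SE 0.098 and 0.19, limma adjusted p = 2.88e-14 and 1.44e-10). OXS3 (AT5G56550), a gene of tolerance to oxidative stress, had 5.59, 7.19 and 6.19 TPM in flu1-5 ex1, against 42.6, 42.7 and 40.5 TPM in flu1-1 ex1. In dark it was not called, with 46.0 ± 2.88 TPM in flu1-5 ex1 and 53.7 ± 3.04 TPM in flu1-1 ex1. Its log2 difference in light was -2.56 (SE 0.073, limma adjusted p = 1.19e-11). XPL1 (AT3G18000), a phosphoethanolamine methyltransferase gene, had 18.8 ± 0.273 TPM in flu1-5 ex1 and 53.2 ± 0.987 TPM in flu1-1 ex1 in light. Levels of XPL1 in dark were 17.7 ± 0.337 TPM in flu1-5 ex1 and 18.0 ± 0.413 TPM in flu1-1 ex1. JAL33 (AT3G16450), a jacalin-like lectin gene, had 39.3 ± 2.75 TPM in flu1-5 ex1 and 153 ± 5.18 TPM in flu1-1 ex1. AT5G26890 had 9.69 ± 3.66 TPM in flu1-5 ex1 and 69.8 ± 14.8 TPM in flu1-1 ex1. The last 4 carry no name here. AT5G21940 had 38.5 ± 0.790 TPM in flu1-5 ex1 and 127 ± 1.34 TPM in flu1-1 ex1, and AT1G75945 had 12.1 ± 0.268 TPM in flu1-5 ex1 and 63.3 ± 4.67 TPM in flu1-1 ex1. AT5G26270 had 28.5 ± 0.363 TPM in flu1-5 ex1 and 85.6 ± 5.71 TPM in flu1-1 ex1, and AT2G20670 had 25.1 ± 0.981 TPM in flu1-5 ex1 and 67.9 ± 0.514 TPM in flu1-1 ex1. The lines did not overlap in any of the 15.

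**Figure D4:**
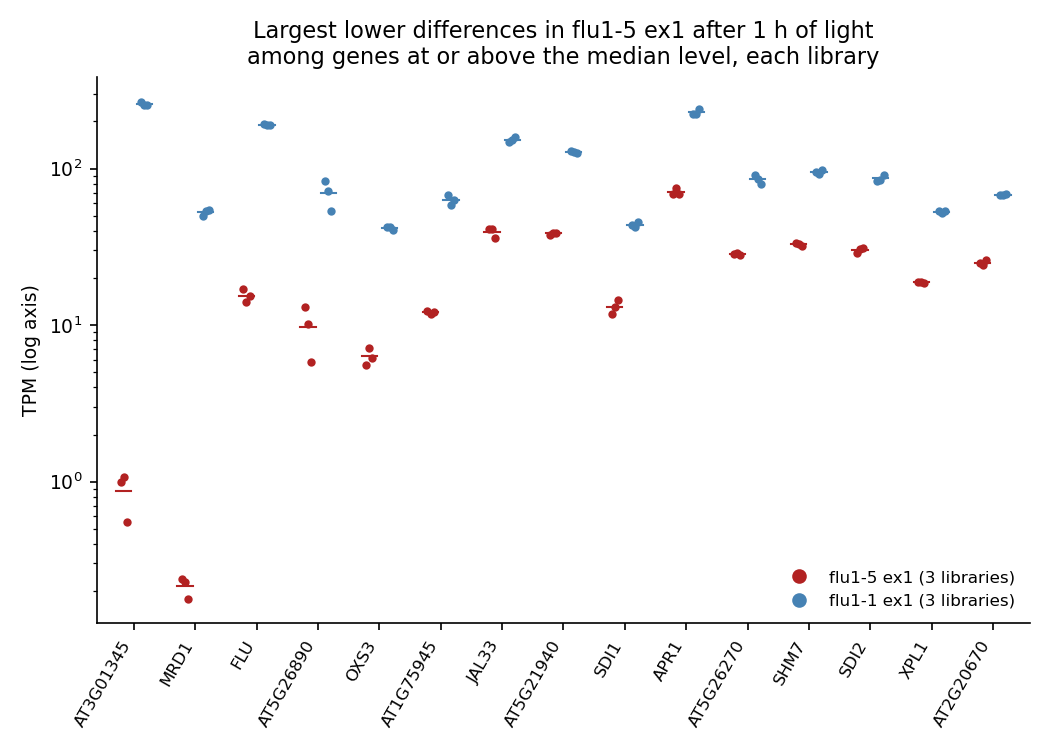
TPM on a log axis of the 15 genes with the largest lower differences in flu1-5 ex1 among those at or above the median level after 1 h of light, ordered by log2 difference. Points are the 3 flu1-5 ex1 libraries (left of each pair) and the 3 flu1-1 ex1 libraries (right), and lines are means. FLU stands at 17.0, 14.0 and 15.4 TPM in flu1-5 ex1 against 193, 189.9 and 189.9 TPM in flu1-1 ex1.

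Some genes were listed at 0 in all light libraries of 1 line. Beside ERF105, the genes with the highest means of this kind in flu1-5 ex1 were AT2G22880, with 20.6, 11.4 and 16.2 TPM, AT3G18291, with 2.11, 2.08 and 1.09 TPM, AT5G43064, with 0, 4.11 and 1.43 TPM, and AT3G60328, with 0, 0 and 9.91 TPM. Listed at 0 in flu1-5 ex1 light were AT4G22520, with 12.2, 6.59 and 5.11 TPM in flu1-1 ex1, AT3G09380, with 3.60, 2.92 and 3.30 TPM, AT3G02790, with 0, 1.97 and 8.17 TPM, AT2G39865, with 0, 0 and 5.41 TPM, and DVL21 (AT3G23637), with 0, 5.19 and 0 TPM. In dark AT4G22520 had 0, 3.56 and 9.14 TPM in flu1-5 ex1, and its interaction term was not called (limma adjusted p = 0.228). DVL21 had 4.78, 0 and 0 TPM in flu1-5 ex1 in dark. A listing at 0 in light thus does not show that a line lacks the transcript. At 1 TPM or more in every light library of the line that listed them were 3 genes for flu1-5 ex1 and 2 for flu1-1 ex1.

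The difference between the lines after light was set against that in dark for the same genes. The 2 pairs share no library. The interaction term was called for 5273 genes (29.6%), 2012 with a higher and 3261 with a lower difference in light than in dark. Of the 553 genes at least 2-fold higher in light, 359 (64.9%) were higher in dark too, 179 were not called there and 15 were lower. Their median log2 difference was 1.54 in light and 0.46 in dark, and for 481 (87.0%) the difference was larger in light. Of the 108 genes at least 2-fold lower, 32 were lower in dark, 67 were not called and 9 were higher, with medians of -1.23 and -0.10, and the interaction term was lower for 89. Both sets were chosen for a large difference in light, which by itself favours a larger value in light than in dark, so these medians and counts are a description from which nothing is read.

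**Figure D5:**
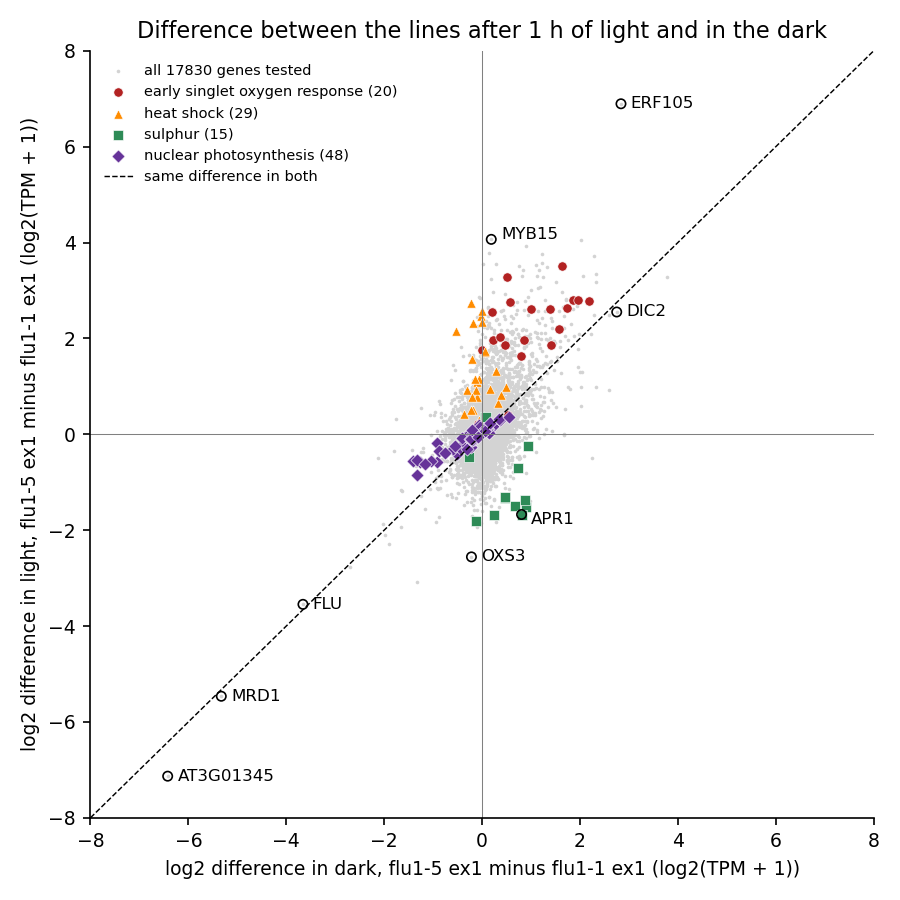
Log2 difference between flu1-5 ex1 and flu1-1 ex1 in light (vertical) and in dark (horizontal) for 17830 genes, with members of 4 lists in colour and single genes circled. Genes on the dashed line have the same difference in both. FLU lies near it (-3.55 and -3.66), 18 of the 20 early singlet oxygen genes tested have a larger difference in light by the interaction term, and most sulphur genes lie below 0 in light. The position of ERF105 depends on the pseudocount, since it was listed at 0 in flu1-1 ex1.

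Opposite calls were made for 577 genes, 177 higher in light and lower in dark and 400 lower in light and higher in dark. After quantile normalization these numbers were 198 and 248. HSP17.6A (AT5G12030) had 230.5, 232 and 234 TPM in flu1-5 ex1, against 50.1, 55.1 and 49.5 TPM in flu1-1 ex1 in light and 0.510, 0.0835 and 0.168 TPM in flu1-5 ex1, against 0.580, 0.825 and 0.970 TPM in flu1-1 ex1 in dark. AT1G15125 had 37.1 ± 1.53 TPM in flu1-5 ex1 and 11.1 ± 0.436 TPM in flu1-1 ex1 in light. Levels of AT1G15125 in dark were 144 ± 6.13 TPM in flu1-5 ex1 and 174 ± 7.31 TPM in flu1-1 ex1. For HSP17.6A and AT1G15125 the direction was opposite in light and in dark, with log2 differences of 2.15 and 1.65 in light and -0.52 and -0.27 in dark. AT1G19320 had 3.56 ± 0.324 TPM in flu1-5 ex1 and 0.292 ± 0.201 TPM in flu1-1 ex1 in light. Levels of AT1G19320 in dark were 1.10 ± 0.110 TPM in flu1-5 ex1 and 1.83 ± 0.106 TPM in flu1-1 ex1. Prx37 (AT4G08770), a peroxidase gene, had 7.88 ± 0.573 TPM in flu1-5 ex1 and 1.87 ± 0.261 TPM in flu1-1 ex1 in light. Levels of Prx37 in dark were 1.03 ± 0.221 TPM in flu1-5 ex1 and 1.66 ± 0.277 TPM in flu1-1 ex1. HSP70-5 (AT1G16030), a cytosolic chaperone, had 18.6 ± 0.325 TPM in flu1-5 ex1 and 5.58 ± 0.172 TPM in flu1-1 ex1 in light. Levels of HSP70-5 in dark were 4.70 ± 0.0244 TPM in flu1-5 ex1 and 5.62 ± 0.102 TPM in flu1-1 ex1. In the other direction the sulphur genes APR1, SHM7, SDI2 and LSU3 led. MLP423 came next. MLP423 (AT1G24020), a gene of the major latex protein family, had 62.6 ± 2.58 TPM in flu1-5 ex1 and 163 ± 2.69 TPM in flu1-1 ex1 in light. Levels of MLP423 in dark were 81.5 ± 2.79 TPM in flu1-5 ex1 and 68.9 ± 2.93 TPM in flu1-1 ex1.

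By contrast, 43 genes were at least 2-fold apart in light and in dark in the same direction with no call of the interaction term, 34 higher and 9 lower. The lack of a call does not show that the differences in light and dark are equal. This set was chosen after the values were seen and is given as a description. The 9 lower genes were FLU, MRD1, AT1G75945, AT3G09380, AT3G16020, JAL33, LBD26, AT4G10270 and AT5G26890. Chromosome 3, which carries FLU, held 13 of the 43 (30.2%) and 5 of these 9, beside 19.7% of all genes tested. Chromosome 1 also held 13 of the 43, beside 26.2% of all genes tested, and 2 of the 9. Among the 34 were DIC2, OM66, WRKY53, PUB23, CYP81F2 and CML24. CML24 (AT5G37770), a touch-induced calmodulin-like gene, had 99.9 ± 3.98 TPM in flu1-5 ex1 and 40.5 ± 0.914 TPM in flu1-1 ex1 in light. Levels of CML24 in dark were 82.2 ± 1.72 TPM in flu1-5 ex1 and 32.3 ± 0.659 TPM in flu1-1 ex1.

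Markers of organs and cell types were read as a check on what the seedlings were made of. Mesophyll markers were abundant, with summed levels of 17782 to 18818 TPM in flu1-5 ex1 light libraries and 17593 to 18045 TPM in those of flu1-1 ex1. RBCS1A, which was not called, made up most of these sums. The other members differed in opposite directions. CA1 (AT3G01500) was higher, with 1630 ± 91.8 TPM in flu1-5 ex1 and 1217 ± 81.1 TPM in flu1-1 ex1, and LHCB3 was lower, as given above. The 5 root hair markers summed to 1.84 to 3.17 TPM in flu1-5 ex1 light libraries and 1.30 to 1.88 TPM in those of flu1-1 ex1, none of them tested. The 3 endodermis markers summed to 0.522 to 1.12 TPM in flu1-5 ex1 light libraries and 1.03 to 1.19 TPM in those of flu1-1 ex1. Root markers were thus low in both lines, and how much root tissue the pools held was not tested. All 4 markers of dividing cells were lower in flu1-5 ex1, with sums of 59.0 to 62.6 TPM in flu1-5 ex1 and 87.4 to 92.8 TPM in flu1-1 ex1. KNOLLE (AT1G08560), the syntaxin of the cell plate, had 29.0, 27.0 and 27.2 TPM in flu1-5 ex1, against 41.0, 42.3 and 43.7 TPM in flu1-1 ex1. The mitotic cyclin gene CYCB1.2 (AT5G06150) had 12.2 ± 0.816 TPM in flu1-5 ex1 and 20 ± 1.36 TPM in flu1-1 ex1. In dark their sums were 83.5 to 85.4 TPM in flu1-5 ex1 and 92.3 to 97.0 TPM in flu1-1 ex1, and 1 of 4 was lower. Of 7 stomatal markers 1 was higher, FAMA, and 2 were lower, TMM and SPCH, beside 18.1% and 21% of all genes tested. EPF1, MUTE, MYB60 and KAT1 were not called. Without the second flu1-1 ex1 light library 2 of the 7 were higher. TMM (AT1G80080) had 9.89 ± 0.763 TPM in flu1-5 ex1 and 17.3 ± 1.40 TPM in flu1-1 ex1. SPCH (AT5G53210) had 5.24 ± 0.0183 TPM in flu1-5 ex1 and 8.0 ± 0.735 TPM in flu1-1 ex1. FAMA (AT3G24140) had 31.4 ± 1.41 TPM in flu1-5 ex1 and 26.2 ± 0.945 TPM in flu1-1 ex1. In pools of seedlings fewer cells of a type and less RNA per cell cannot be told apart. The trichome genes GL2 and GL1 differed in opposite directions. GL2 (AT1G79840) had 9.50 ± 0.458 TPM in flu1-5 ex1 and 4.17 ± 0.792 TPM in flu1-1 ex1. GL1 (AT3G27920) had 3.02 ± 0.708 TPM in flu1-5 ex1 and 5.64 ± 1.04 TPM in flu1-1 ex1. Of 5 seed storage markers 2 were tested, and 1 was called in light, CRA1 (AT5G44120). It had 6.02 ± 1.54 TPM in flu1-5 ex1 and 2.83 ± 0.813 TPM in flu1-1 ex1 in light. In dark CRA1 was lower, with 5.57 ± 0.847 TPM in flu1-5 ex1 and 8.58 ± 0.391 TPM in flu1-1 ex1. Of 3 phloem and 4 xylem markers tested, SUC2 and XCP2 were higher by 0.11 and 0.09 on the log2 scale. The SUC2 call was lost under 7 of the alternatives (limma adjusted p 0.0535 to 0.160) and that of XCP2 under 8 (0.0503 to 0.108), 5 of them for each gene with 1 light library left out. The part of these markers in the differences above was not tested.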

How the data were processed

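RNA of 12 pools of seedlings was sequenced, and the authors deposited 1 table per line with TPM for 1 transcript per gene. The submitters' processing notes name kallisto 0.46.2, sleuth 0.30.0 and TAIR10, with no role or order, and how the transcript of a gene was chosen and whether the tables were scaled together is not given in the sources used here. TPM keeps no read number, so no counting interval is given. The authors' fold changes and p-values compare light with dark within a line and were not used here.

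The tables were joined on gene identifier, keeping genes with the same transcript. Values were fitted as log2(TPM + 1) with limma 3.58.1 (trended, robust; statmod 1.5.0, R 4.3.3) over all 12 libraries as 4 groups, with contrasts for the line difference in light, in dark, and light minus dark. Genes with a mean of 1 TPM or more were tested two-sided, with Benjamini-Hochberg adjustment over all 17830 and a threshold of 0.05. With 3 libraries against 3, an exact permutation test of 1 gene cannot go below p = 0.1. In simulated data for the light comparison with 17717 genes, the fit recovered 24.5% of genes changed by 1.2-fold, 89.8% at 1.5-fold and 97.9% at 2-fold, with 6 false calls among 158. For the interaction term it recovered 12.2%, 69.4% and 89.6%, with 6 false calls among 137. The simulation drew all 12 libraries from the same mean for each gene. It then changed 48 or 49 of the genes tested at each size, in flu1-5 ex1 light only. In the real light comparison 39.1% of genes were called, so these rates of recovery and false calls do not carry over to it. The batch field of the labels is the same for all 12 samples, which does not show that they were grown, prepared or sequenced together.

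The gene lists, the comparison and the rule for named genes were chosen with earlier results of these data known. The rule took the 15 largest higher and lower differences at or above the median level, the 2 largest called in each direction of each list, FLU, EX1, EX2, the early singlet oxygen list, the 5 highest genes per line listed at 0 in the other, and the 5 largest opposite differences per direction. Other list members are examples chosen after their values were seen. Alternatives covered scaling, the filter, the pseudocount, the replicate block, the libraries fitted, single libraries left out and the threshold. Promoters were read from RefSeq's TAIR10.1 for 17695 of the 17830 genes, and gene symbols came from RefSeq for 26474 of 26684.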

Additional observations from a re-analysis of the deposited data

Results flagged for a closer look

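Line differences that were not the same in light and in dark, by the interaction term of limma, were found for 5273 of 17830 genes, and 577 genes were called in opposite directions in the light pair and the dark pair. Among the 10 genes with the largest opposite differences, the light difference minus the dark difference on the log2 scale was -2.48 for APR1, -2.41 for SHM7, -2.24 for LSU3, -2.16 for SDI2 and -1.6 for MLP423. In the other direction it was 2.67 for HSP17.6A, 2.26 for AT1G19320, 2.03 for Prx37, 1.93 for AT1G15125 and 1.79 for HSP70-5. Prx37 was no longer called in opposite directions with a pseudocount of 5, with the replicate block or when each condition was fitted alone. The same held for HSP17.6A with a pseudocount of 5, for HSP70-5 when each condition was fitted alone, and for AT1G19320 with a pseudocount of 0.1.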

How the results depend on the processing

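The counts of called genes in light stayed within 1.5 times under every other scaling, filter, pseudocount and choice of libraries run, and leaving out single libraries gave 2849 to 2970 higher and 3172 to 3379 lower. The threshold moved them, with 553 higher and 108 lower at 2-fold or more. For the light minus dark difference, leave-one-out gave 1818 to 1910 higher and 2863 to 3111 lower, an adjusted p under 0.01 gave 1332 and 1976, and 2-fold gave 362 and 142. In dark, leave-one-out gave 2089 to 2249 higher and 717 to 835 lower, an adjusted p under 0.01 gave 1609 and 531, and 2-fold gave 160 and 29. Quantile normalization changed the split in dark, where 55.3% of calls were higher in place of 72.1%, while in light it gave 2919 higher and 4433 lower.

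Replicate numbers gave no clear pairing of the libraries, since deviations of same-numbered light libraries correlated at -0.062 to 0.005. Over all pairs of groups the range was -0.062 to 0.153, with the highest value for the third light and dark libraries of flu1-1 ex1. Not every library correlated best with its own number. With the replicate block, 3170 genes were higher and 3609 lower in light, 1939 and 3121 in the light minus dark difference, and 2474 and 927 in dark. Among 138 named genes no alternative reversed the direction of a called difference. A change of sign with no call in either fit was not counted as a reversal. Of the values of named genes under alternatives 1736 kept their call or lack of one, 31 lost a call and 1 gained one, with the cause not tested. The losses concern ST2A, OHP2, IAA19, HAI1, XCP2, SUC2 and RBCS2B. RBCS2B lost its call only under quantile normalization, which sets a gene of constant rank to the same value in every library. HAI1, a phosphatase gene of the abscisic acid list, had a log2 difference of 0.66, and its limma adjusted p was 0.204 with a pseudocount of 0.1. Of the list counts 840 stayed within 1.5 times and 40 did not. Of the list medians 294 moved by less than the spread between replicates and 146 by more. The unknown depth and 3 libraries per group limit what could be told apart, most of all for genes near the filter.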
